A study of Mus musculus with 12 samples.

Results

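Mast cells stimulated through their IgE receptor were compared between 2 edited populations, Mettl3 KO cells and c-Kit KO cells. The members are the 6 stimulated libraries of the 12 in the series, 3 labelled Mettl3 with IgE and antigen and 3 labelled Kit with the same treatment, as given by their sample labels. Both populations were bone marrow-derived mast cells grown from C57BL/6 mice of 6 to 8 weeks of age and kept in IL-3 for at least 4 weeks. In both, Cas9 and a donor template placed a ZsGreen reporter with a stop cassette in the target gene, and ZsGreen-positive cells were sorted as a pool, not as a clone, before stimulation. The c-Kit KO cells are therefore a control edited in the gene of the stem cell factor receptor, not unedited wild-type cells. Stimulation lasted 4 h in all 6 libraries, and the 3 unstimulated libraries of each genotype give the reference level beside the results. The unstimulated libraries also entered the probe filter, the shared estimate of spread behind the p-values, and the interaction test.

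Cross-linking of receptor-bound IgE by antigen starts a kinase cascade through Lyn, Fyn and Syk that ends in degranulation, lipid mediator release and transcription of cytokine and chemokine genes through NFAT, NF-kB and AP-1 factors. Mettl3 is the catalytic subunit of the complex that writes N6-methyladenosine on mRNA, a mark known to affect mRNA decay and translation, and many transcripts induced in activated mast cells are short-lived. The question addressed here was which groups of genes, apart from the cytokines Il2, Il3, Il6, Il13, Csf2 and Tnf, differed between the genotypes in the activated cells.

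The guides are shown because they define the 2 groups, each with its PAM in capitals and read from GRCm39 at the site where all its bases matched. Both Kit guides lie in exon 2 of Kit, on chromosome 5 at chr5:75767786-75767805 on the minus strand and chr5:75767877-75767896 on the plus strand. One Mettl3 guide lies in exon 1 of Mettl3, at chr14:52542420-52542439 on the minus strand. The other, at chr14:52542216-52542235 on the plus strand, lies in the intron after exon 1 of the transcript used here.
Kit guide 1: agtcgggatcaatgcacgtcAGG
Kit guide 2: aaagccgaggccactcgcacGGG
Mettl3 guide 2: ggacacgtggagctctatccAGG
Mettl3 guide 3: gatggggtaaccaacaatcgAGG

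The panel holds no Mettl3 probe, so the Mettl3 edit could not be checked with these counts. Its Kit probe, at base 4275 of the mRNA, lies downstream of exon 2, which ends at base 476 in a transcript of 5263 bases. The probe does not read the edited site itself. How far the inserted stop cassette lowers RNA at the probe was not tested. Kit, the stem cell factor receptor gene, had normalized counts of 1159, 1613 and 738 in stimulated c-Kit KO replicates 1, 2 and 3 and of 1845, 1771 and 1549.6 in stimulated Mettl3 KO replicates 1, 2 and 3. The Mettl3 KO library had the larger value in each pair of libraries with the same replicate number, and the log2 fold change was 0.56 (standard error, SE, 0.32, adjusted p = 0.469) for Mettl3 KO over c-Kit KO cells, which passed neither threshold given below.

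Endogenous probes received 531503 to 737910 counts per stimulated library, and the mean plus 2 SD of the negative control probes, taken as background, lay at 20.1 to 39.2 counts. A normalized count is the barcode count divided by the library's housekeeping factor. Of the 734 endogenous probes, 545 reached 20 counts in 3 or more libraries and were tested, and of these 407 were above background in at least 2 of 3 libraries of either stimulated group. At the edge of this filter, 29 kept probes had 20 or 21 counts in the library that decided, the one ranked 3rd, and 51 probes left out had 18 or 19 there. The study calls the replicates biological, which mice each came from is not given in the sources used here, and 2 replicates of one group differed far beyond counting noise, with chi-square values of 84.9 to 232 per degree of freedom. In replicate 1, the c-Kit KO library had a geometric mean of 768 counts on the positive controls, against 1195 to 1706 in the other stimulated libraries.

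Among the 545 genes, 77 differed between stimulated Mettl3 KO and stimulated c-Kit KO cells by at least 1.5-fold with an unadjusted p of at most 0.05, which are the thresholds of the study and are called both thresholds here. Of these, 71 (13.0% of all tested) were higher and 6 (1.10%) were lower in Mettl3 KO cells. Among the 71 higher genes, 8 were below background in at least 2 of 3 libraries of both stimulated groups, and the list counts below include them. The same held for 138 of all 545 tested genes. The tests were edgeR's quasi-likelihood tests of 1 model over the 12 libraries. After Benjamini-Hochberg adjustment over all 545 genes, 5 genes (0.917%) had an adjusted p under 0.05, all of them higher, and 2 of these, Il2 and Il3, belong to the named cytokines. The median log2 fold change over all tested genes was 0.20, and TMM scaling over the endogenous probes moved it to 0.01, so that group medians below are read against this shift. Under TMM the split was 48 higher and 16 lower (75.0% of calls higher against 92.2%), and under DESeq2 it was 51 and 22 (69.9%). In bulk RNA, more cells that hold a transcript and more transcript per cell cannot be told apart. When the replicate number entered as a block, 94 genes (17.2%) were higher and 12 (2.20%) lower.

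The 3 pairs, formed by the replicate number in the labels, did not contribute alike. A table of the study numbers the stimulated Mettl3 KO library of replicate 3 differently, so pair 3 may not be a matched pair. The 71 higher genes had a median log2 difference between the Mettl3 KO and c-Kit KO libraries of 1.73 in pair 1, 1.69 in pair 2 and 0.28 in pair 3. All 71 were higher in pairs 1 and 2, and 59 were higher in pair 3 as well. Of all 545 genes 195 (35.8%) were higher in 3 of 3 pairs. In 46 of the 71 the 3 Mettl3 KO values lay above all 3 c-Kit KO values, as they did in 78 of all 545 genes (14.3%). Without the stimulated Mettl3 KO library of replicate 3, 89 genes (16.3%) were higher past both thresholds and 33 had an adjusted p under 0.05, among them all 5 named above. Without replicate 1 of both genotypes 27 genes were higher past both thresholds, and without replicate 2 of both 30, with 0 at an adjusted p under 0.05 in each.

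**Figure D1:**
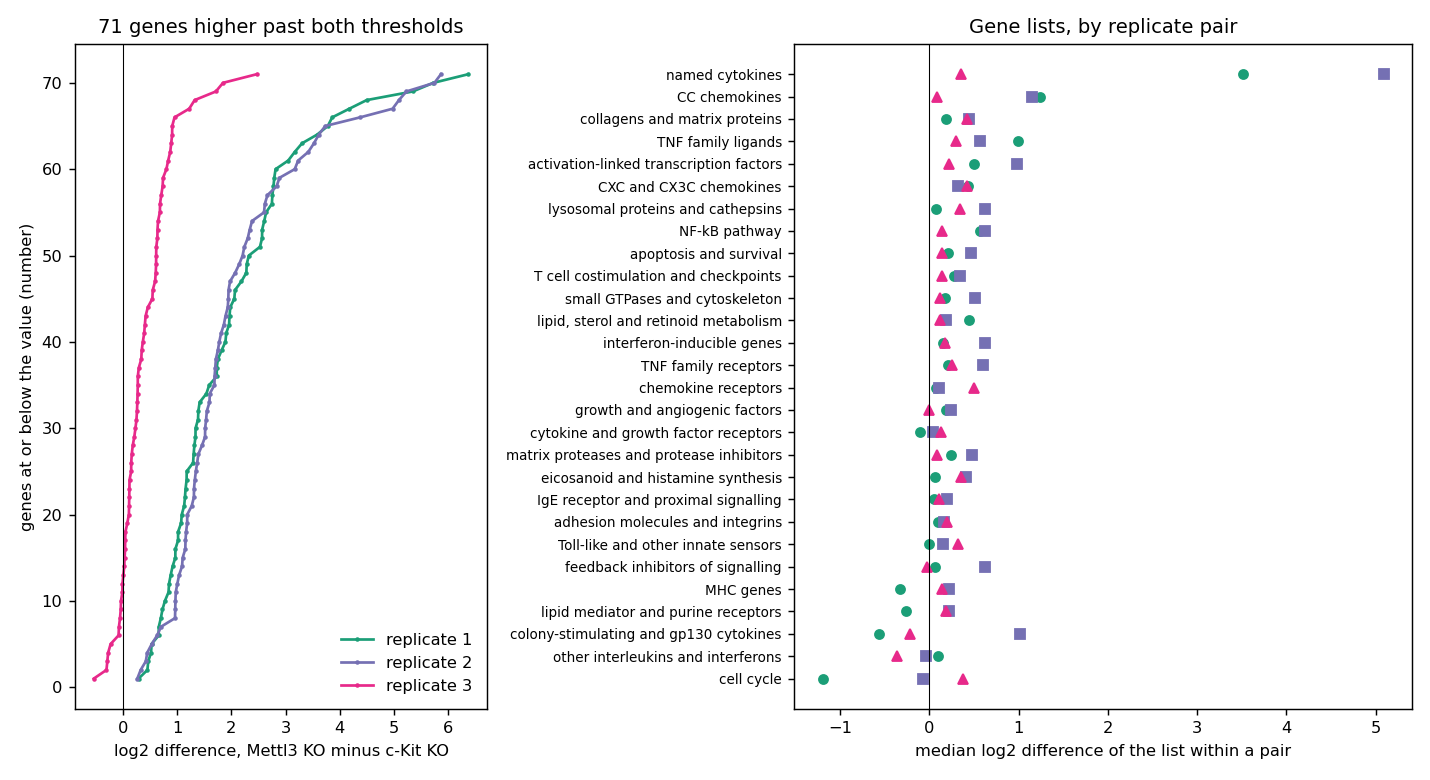
Log2 differences (normalized count + 1) between the stimulated Mettl3 KO and c-Kit KO library of the same replicate number. On the left, the 71 genes higher past both thresholds are ranked by that difference, 1 line per replicate; on the right, each point is the median over a gene list in replicate 1 (circles), 2 (squares) or 3 (triangles). The line of replicate 3 lies to the left of the others, with a median of 0.28 against 1.73 and 1.69.

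The 3 genes outside the named cytokines with an adjusted p under 0.05 were Gem, Timp3 and Ccr3. Gem, which encodes a small GTP-binding protein that restrains calcium channels, lies on chromosome 4 (GRCm39, 11704343 to 11714993). The normalized counts were 27.6, 31.3 and 44.0 in c-Kit KO replicates 1, 2 and 3 and 642, 289 and 83.6 in Mettl3 KO replicates 1, 2 and 3. Every Mettl3 KO library was above every c-Kit KO library, and the c-Kit KO values lay close to background. The log2 fold change was 3.29 (SE 0.59, adjusted p = 0.0334), against 0.16 in unstimulated cells.

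Timp3, an inhibitor of matrix metalloproteinases, lies on chromosome 10 from 86136236 to 86185371. It had 72.1, 88.8 and 185 normalized counts in c-Kit KO cells and 604, 1031 and 283 in Mettl3 KO cells, with no overlap, although c-Kit KO replicate 3 was the highest of its group and Mettl3 KO replicate 3 the lowest of its own. In unstimulated cells the counts were 159, 188 and 164 in c-Kit KO and 238, 308 and 157 in Mettl3 KO cells. The stimulated c-Kit KO mean of 115 thus lay below the unstimulated one of 170.4, and the stimulated Mettl3 KO mean of 639 above that of 234. The log2 fold change between stimulated genotypes was 2.46 (SE 0.49, adjusted p = 0.0374), and the adjusted p was 0.0637 with the replicate block and 0.0598 under TMM.

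Ccr3, the receptor for eotaxins, lies on chromosome 9 from 123822009 to 123831726. Its counts were 27.6, 23.2 and 24.2 in c-Kit KO cells, where 1 of 3 was above background, and 112, 226 and 62.1 in Mettl3 KO cells. All 3 Mettl3 KO libraries lay above all c-Kit KO libraries, by a log2 fold change of 2.41 (SE 0.48, adjusted p = 0.0374). Without stimulation the order was the other way in each pair, with 45.2, 44.8 and 26.9 counts in c-Kit KO and 34.5, 42.0 and 16.5 in Mettl3 KO cells. These unstimulated counts lay near background, which spanned 18.0 to 44.3 normalized counts over the 12 libraries.

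The named cytokines themselves were all higher past both thresholds, with log2 fold changes from 1.36 for Il6 to 5.08 for Il2 and a median of 3.18. Il3, on chromosome 11 from 54156129 to 54158103, had 134, 74.6 and 255 counts in c-Kit KO and 2428, 4048 and 920.5 in Mettl3 KO cells (log2 fold change 3.99, SE 0.76, adjusted p = 0.0373). The list's medians in pairs 1, 2 and 3 were 3.51, 5.10 and 0.36, and Il2 was at background in c-Kit KO cells, on chromosome 3 from 37174672 to 37180108, with 7.42, 22.2 and 19.0 counts against 694, 866 and 110.1 (log2 fold change 5.08, SE 0.73, adjusted p = 0.00903).

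**Figure D2:**
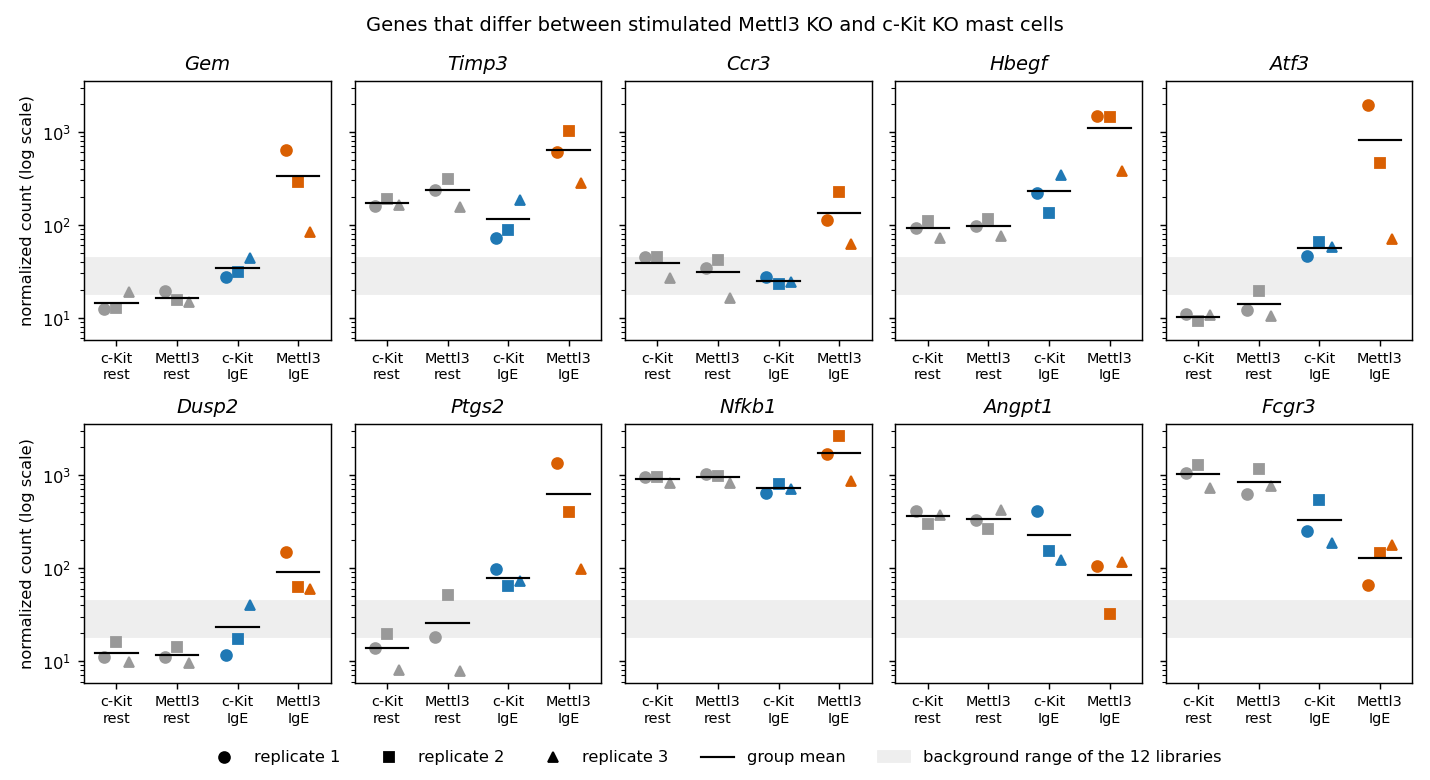
Normalized counts (log scale) of 10 genes in every library of the 4 groups, with the replicate number as the marker shape, the group mean as a line and the background range of the 12 libraries as a grey band. Gem, Timp3, Ccr3, Hbegf, Atf3, Dusp2 and Nfkb1 have every stimulated Mettl3 KO value above every stimulated c-Kit KO value, and Angpt1 and Fcgr3 have every one below.

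For the other genes, 27 lists by known function were used, with 486 genes of the panel among them. A share of 13.0% of all tested genes was higher, and of 12.1% without the named cytokines. Of the 27 lists, 11 held a share above the former and 16 above the latter, and 5 held no gene past both thresholds. Under TMM, calls of higher genes also fell from 2 to 1 among collagens and matrix proteins, IgE receptor signalling and lysosomal proteins, and from 1 to 0 among cytokine receptors and lipid mediator receptors. With the replicate block they rose from 2 to 4 among costimulation genes and lysosomal proteins and from 1 to 3 in lipid metabolism. Over all tested genes, calls of higher genes went from 71 to 48 under TMM and to 94 with the block, so list counts in these settings are read against that. The lists were chosen with earlier results of these data known, so the counts describe these libraries and give no separate support.

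**Figure D3:**
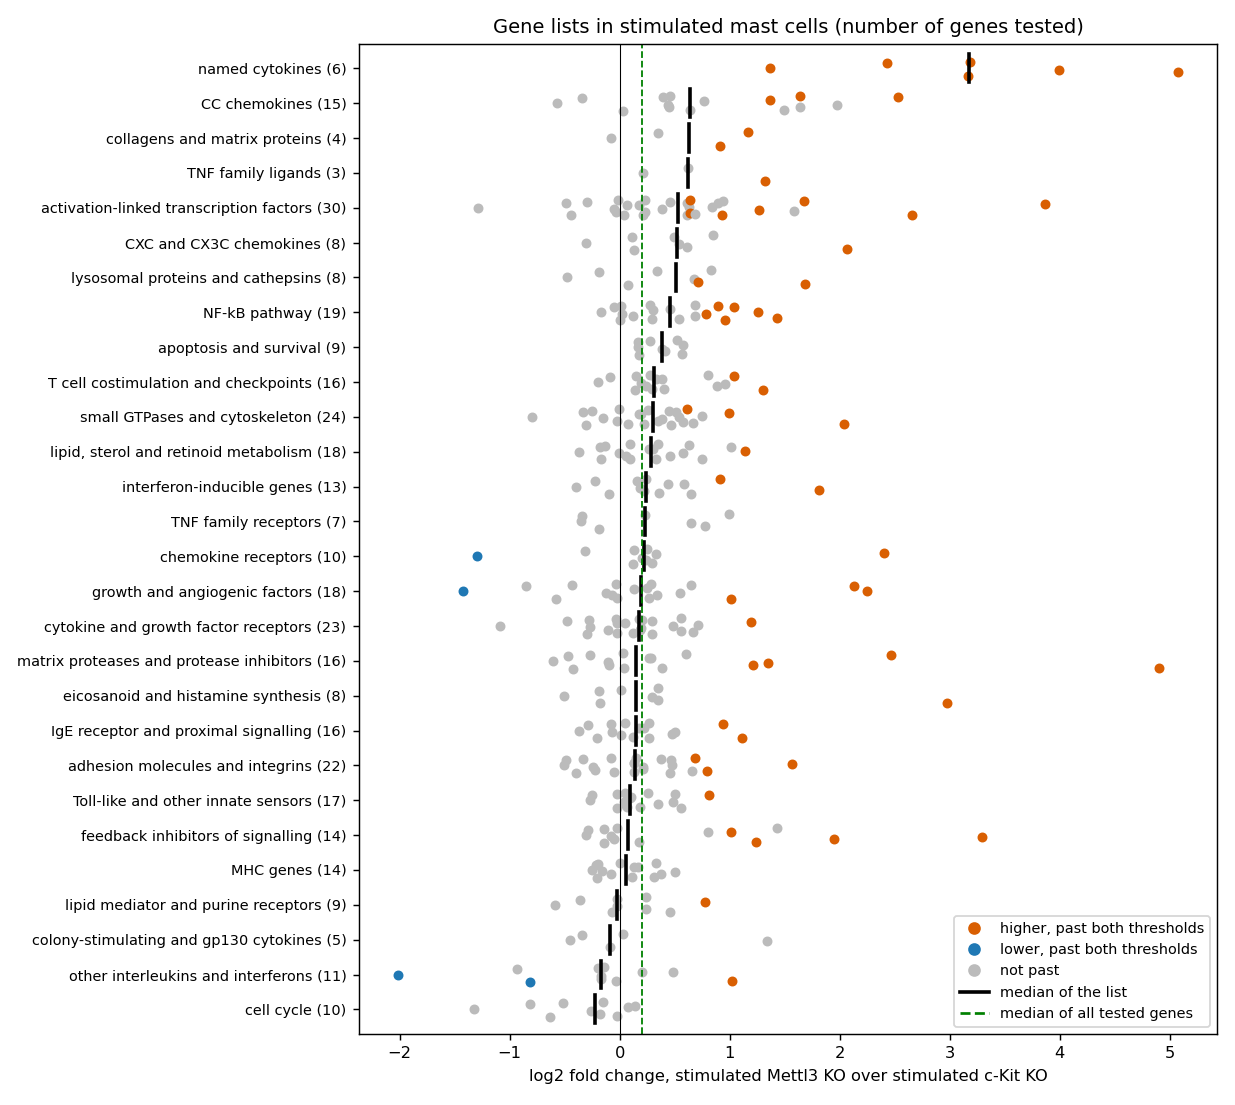
Log2 fold changes of stimulated Mettl3 KO over stimulated c-Kit KO cells for every tested gene of the named cytokines and the other 27 lists (number tested in brackets), ordered by the list median. Orange points were higher and blue points lower past both thresholds, the black bar is the list's median and the dashed line the median of all 545 genes, 0.20.

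Genes that control transcription were among the higher ones. Of 19 NF-kB pathway genes, 6 were higher past both thresholds (31.6% against 13.0% of all tested), none was lower, and the median log2 fold change was 0.45 against 0.20 over all genes. The pair medians were 0.57, 0.63 and 0.14, against 0.17, 0.25 and 0.17 over all tested genes, so that in pair 3 the list lay below the panel. The unstimulated median was 0.05, against 0.08 over all tested genes. Nfkb1, which encodes the p105 precursor of the p50 subunit, had 645, 807 and 716 normalized counts in c-Kit KO replicates 1, 2 and 3 and 1697, 2633 and 869 in Mettl3 KO replicates 1, 2 and 3. The groups did not overlap, and Mettl3 KO replicate 3 stood nearest to the c-Kit KO values. Its log2 fold change was 1.26 (SE 0.33, adjusted p = 0.122).

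Genes of NF-kB inhibitors were higher as well. Nfkbie, encoding IkB-epsilon, had 84.8, 80.7 and 118 counts in c-Kit KO and 223, 202 and 128 in Mettl3 KO cells, without overlap (log2 fold change 0.96, SE 0.30, adjusted p = 0.182). Nfkbia, encoding IkB-alpha, had 32.9, 84.7 and 70.3 and 164, 259.6 and 85.3 counts, also without overlap, and a log2 fold change of 1.43. The remaining members past both thresholds were Traf6 and Peli1, ubiquitin ligases upstream of the IkB kinases, and Map3k14, the kinase of the non-canonical branch, with log2 fold changes of 0.78, 0.89 and 1.04. Tnfaip3, which encodes the feedback inhibitor A20, did not pass, with 567, 1066 and 499 counts in c-Kit KO and 650.4, 1047 and 469 in Mettl3 KO cells and a log2 fold change of 0.02.

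Of 30 genes listed as activation-linked transcription factors, 7 were higher (23.3%) and none lower past both thresholds, with a median of 0.53 and pair medians of 0.50, 0.98 and 0.22. Over all tested genes the pair medians were 0.17, 0.25 and 0.17. With the replicate block 11 were higher, and under TMM 4 were higher and 1 lower. Of all 545 tested genes, 94 (17.2%) were higher with the block, and 48 were higher and 16 lower under TMM. Atf3, a stress-induced basic leucine zipper factor, had 46.6, 64.6 and 57.9 counts in c-Kit KO replicates 1, 2 and 3 and 1932, 466 and 70.4 in Mettl3 KO replicates 1, 2 and 3. The groups did not overlap, but Mettl3 KO replicate 3 exceeded the highest c-Kit KO library only slightly (log2 fold change 3.86, SE 0.85, adjusted p = 0.0544). Nfatc1, a calcineurin-dependent factor, was more even, with 312, 340.0 and 287 against 564, 855 and 372 counts and a log2 fold change of 0.93 (SE 0.28, adjusted p = 0.162).

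Cebpb, Smad7, Nr4a1, Batf and Ets1 were the other members of this list past both thresholds, with log2 fold changes of 1.67, 1.26, 2.65, 0.64 and 0.64. Nr4a1, an immediate early nuclear receptor, had 433, 35.3 and 46.9 counts in c-Kit KO and 2646, 481 and 111 in Mettl3 KO cells. Its groups overlapped because replicate 1 was the highest in both genotypes, while each pair differed in the same direction. Egr3 showed the same layout, with 1427, 95.8 and 149 against 2436, 2221 and 357 counts, and did not pass (log2 fold change 1.59, SE 1.11).

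**Figure D4:**
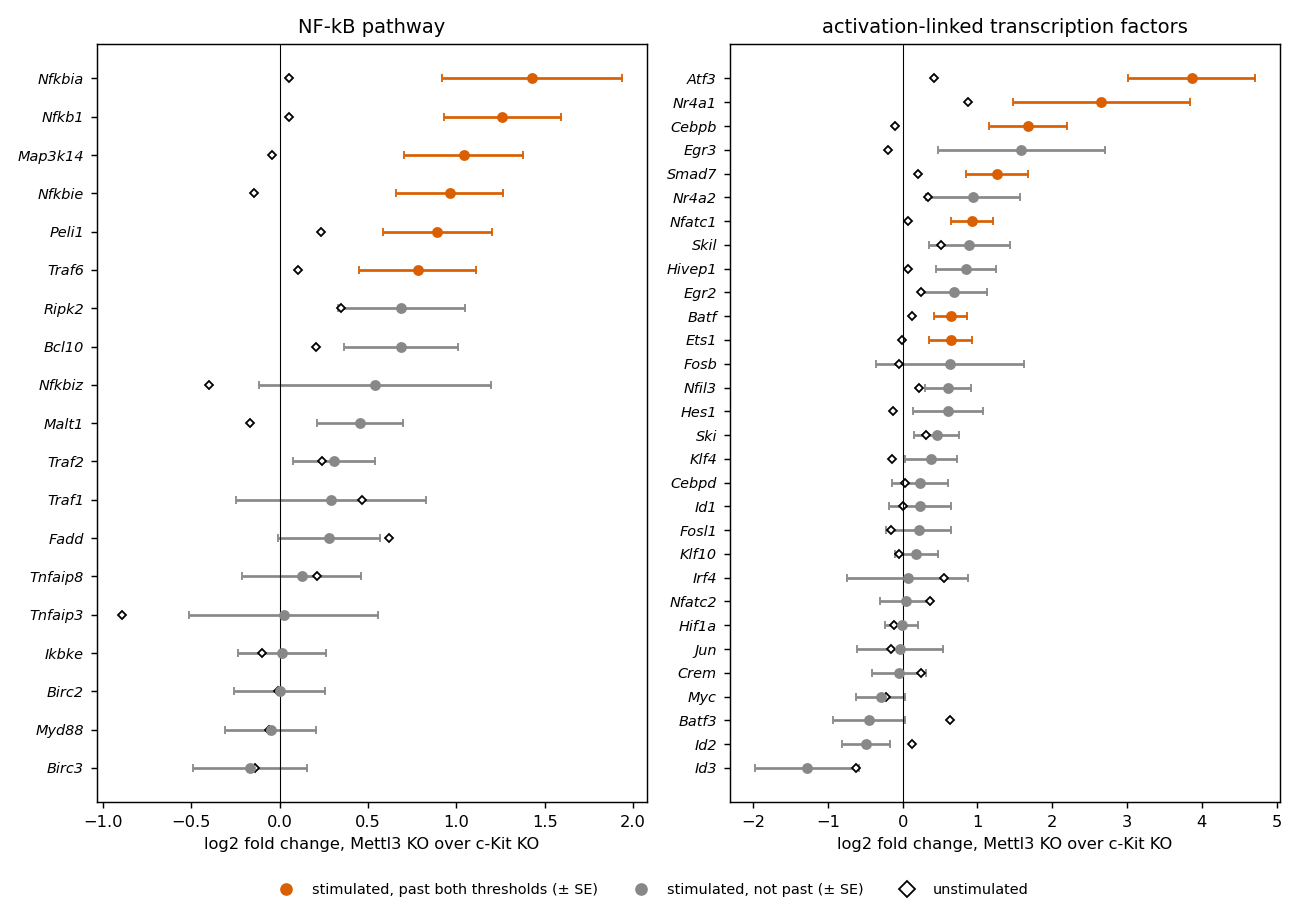
Log2 fold change of Mettl3 KO over c-Kit KO cells for every tested gene of the NF-kB list and of the transcription factor list. Filled circles are stimulated cells with the standard error of the fit (orange past both thresholds), open diamonds unstimulated cells; Nfkbia and Atf3 lead their panels at 1.43 and 3.86.

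Chemokines and other secreted proteins formed the next group. Among 15 CC chemokines, 3 were higher past both thresholds (20%), Ccl4, Ccl5 and Ccl9, and the list's median was 0.64, beside 0.63 in unstimulated cells. Under TMM 1 was higher, Ccl4, and 1 lower, the eotaxin-2 gene Ccl24. Without c-Kit KO library 1 or 2 or Mettl3 KO library 1, taken singly, 1 CC chemokine was higher, and without replicate 1 of both genotypes 0. The pair medians were 1.24, 1.15 and 0.08, the last below the 0.17 of all tested genes in pair 3. Ccl9, a myeloid chemoattractant, had 4891, 3618 and 5969 counts in c-Kit KO and 16252, 22226 and 6511 in Mettl3 KO cells (log2 fold change 1.64, SE 0.71, adjusted p = 0.312). Ccl4 had 1789, 1249 and 2057 against 12269.7, 15271 and 1961 counts, far apart in replicates 1 and 2 and slightly reversed in replicate 3. Ccl3 had the same layout, 16478, 6332 and 19890.2 against 75765, 75209.8 and 17324, and did not pass (log2 fold change 1.98, SE 1.15).

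Of 8 CXC and CX3C chemokines only Cxcl2, a neutrophil attractant, was higher past both thresholds (12.5%). Its counts were 24.4, 20.2 and 16.1 in c-Kit KO cells, at background, and 149.5, 80.0 and 24.0 in Mettl3 KO cells (log2 fold change 2.06, SE 0.58, adjusted p = 0.133). Among 10 chemokine receptors, Ccr3 was higher and Cx3cr1, the fractalkine receptor gene, was lower. Cx3cr1 had 451, 365 and 57.1 counts in c-Kit KO and 125, 130.4 and 100.2 in Mettl3 KO cells, so that pair 3 ran the other way (log2 fold change -1.29, SE 0.53, adjusted p = 0.276).

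Growth factors went both ways. Of 18 tested, Hbegf, Areg and Vegfa were higher past both thresholds (16.7%) and Angpt1 was lower, around a median of 0.19. Hbegf and Areg encode ligands of the EGF receptor. Hbegf had 222, 133 and 339.9 normalized counts in c-Kit KO and 1494, 1433 and 379 in Mettl3 KO replicates 1, 2 and 3, without overlap, and a log2 fold change of 2.25 (SE 0.49, adjusted p = 0.0544), against 0.06 at rest. Areg had 22.3, 24.2 and 17.6 against 144, 118 and 19.9 counts, where Mettl3 KO replicate 3 lay within the c-Kit KO range and at background (log2 fold change 2.13, SE 0.60, adjusted p = 0.133). Vegfa, encoding the endothelial growth factor VEGF-A, had 99.6, 152 and 120.1 and 292, 341 and 118 counts, with Mettl3 KO replicate 3 inside the c-Kit KO range, and a log2 fold change of 1.01.

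Angpt1, encoding the Tie2 ligand angiopoietin-1, had 409, 154 and 122 counts in c-Kit KO and 105, 32.0 and 117 in Mettl3 KO cells. The groups did not overlap, but pair 3 differed by -0.07 on the log2 scale, against -1.95 and -2.24 in pairs 1 and 2. The log2 fold change was -1.42 (SE 0.51, adjusted p = 0.212).

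Among 16 matrix proteases and protease inhibitors, 4 were higher (25%) around a median of 0.15, among them Timp3, Adamts1, a secreted protease of the matrix, and Plaur, the urokinase receptor gene. Plaur had 107, 224 and 292 against 422, 726 and 299.7 counts without overlap (log2 fold change 1.21), and Adamts1 was near background in the c-Kit KO cells, with 28.6, 17.1 and 14.7 against 73.0, 68.9 and 12.4. Of 4 collagens and matrix proteins, Loxl2, a collagen cross-linking oxidase, and Col4a2 passed. Loxl2 had 14.8, 28.2 and 52.7 against 55.0, 112 and 53.8 counts, and Col4a2, below background in 5 of 6 libraries, 14.8, 25.2 and 13.9 against 20.7, 32.0 and 48.0.

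Feedback inhibitors of signalling had 4 of 14 members higher past both thresholds (28.6%), yet a median of only 0.08, which was -0.11 under TMM. Besides Gem these were Dusp2, a nuclear MAP kinase phosphatase, Rgs16, a GTPase activator for G protein subunits, and Gadd45b. Dusp2 had 11.7, 17.1 and 40.3 counts in c-Kit KO and 150.4, 62.8 and 59.6 in Mettl3 KO cells, without overlap (log2 fold change 1.95, SE 0.48, adjusted p = 0.0780). Rgs16 had 158, 155 and 188 against 527, 503 and 156 counts, with replicate 3 of Mettl3 KO cells within the c-Kit KO range. Socs1 and Socs3, inhibitors of JAK and STAT signalling, did not pass, with log2 fold changes of -0.30 and 0.80, and neither did Spry2, at 0.18.

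In proximal signalling the share of higher genes was near that of all genes. Of 16 genes of the IgE receptor and its proximal signalling, 2 were higher (12.5% against 13.0%), around a median of 0.15. Fyn, an Src family kinase that acts beside Lyn, had 279.8, 461 and 479.9 counts in c-Kit KO and 847, 1213 and 576 in Mettl3 KO cells, without overlap (log2 fold change 1.11, SE 0.36, adjusted p = 0.185). Stat5a had 465, 628 and 648 against 913, 1803 and 627 counts, overlapping through replicate 3. Fcer1a and Ms4a2, the alpha and beta chains of the receptor, had log2 fold changes of -0.37 and -0.20 (standard errors 0.43 and 0.32), Syk 0.26 and Lat 0.12, and none of the 4 passed.

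Small GTPases and cytoskeletal genes had 3 of 24 higher (12.5%), Marcksl1, Arhgef28 and Rhog, and under TMM 1 was higher, Marcksl1, and 1 lower, Cytip. Marcksl1, an actin-binding protein gene of the MARCKS family, had 54.1, 42.4 and 41.8 against 228, 274 and 67.9 counts, without overlap (log2 fold change 2.04, SE 0.55, adjusted p = 0.127). Arhgef28, a guanine nucleotide exchange factor gene, was near background, with 28.6, 17.1 and 20.5 against 45.9, 66.4 and 20.7 counts.

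Lipid mediator genes changed in single members. Of 8 genes of eicosanoid and histamine synthesis, only Ptgs2, the inducible cyclooxygenase that starts prostaglandin synthesis, was higher past both thresholds (12.5%). Its counts were 98.6, 64.6 and 73.3 in c-Kit KO and 1365, 397 and 98.5 in Mettl3 KO replicates 1, 2 and 3, where Mettl3 KO replicate 3 lay at the level of the highest c-Kit KO library (log2 fold change 2.98, SE 0.83, adjusted p = 0.133). Alox5, the first enzyme of leukotriene synthesis, and Hdc, which makes histamine, had log2 fold changes of -0.19 and 0.01 and did not pass. In lipid, sterol and retinoid metabolism, 1 of 18 passed (5.56%), the sphingosine kinase gene Sphk1, with 25.4, 25.2 and 21.2 against 64.0, 75.1 and 20.7 counts, while Acly, the ATP citrate lyase gene, and Crabp2, a retinoic acid-binding protein gene, had log2 fold changes of 0.09 and 0.33. Gpr183, the one lipid mediator receptor past both thresholds of 9, was below background in all 6 libraries.

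Among the immune surface genes, 2 of 16 costimulation and checkpoint genes were higher (12.5%). Vsir, encoding the checkpoint protein VISTA, had 51.9, 30.3 and 68.1 against 116, 130.4 and 126 counts, without overlap and with similar values in all 3 Mettl3 KO libraries (log2 fold change 1.30, SE 0.42, adjusted p = 0.185). Pdcd1lg2, encoding the PD-1 ligand PD-L2, had 219, 349 and 301 against 431, 889.6 and 469 counts, also without overlap (log2 fold change 1.04). Their differences in pair 3 were 0.88 and 0.64 on the log2 scale. Of 22 adhesion molecules, Itga5, Itga4 and Cd44 passed (13.6%), and under TMM 1 was higher, Itga4, and 1 lower, the integrin beta-7 gene Itgb7. Only Itga5, the fibronectin receptor alpha chain gene, was above background throughout, with 63.6, 83.7 and 87.9 against 106, 192 and 112 counts.

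Fcgr3, on no list, encodes the low-affinity IgG receptor CD16 and was lower past both thresholds, with 253, 545 and 185 counts in c-Kit KO and 65.8, 144 and 177 in Mettl3 KO cells, without overlap (log2 fold change -1.34, SE 0.47, adjusted p = 0.205). Ly6c1, also on no list, had 2732, 2067 and 1363 against 692, 1609 and 1027 counts, lower in each pair with overlap between the groups (log2 fold change -0.89). Among the higher genes on no list was Olr1, encoding the scavenger receptor LOX-1, with 199, 174 and 272 against 1386, 1291 and 445 counts, without overlap (log2 fold change 2.27, SE 0.56, adjusted p = 0.0780). Gch1, which starts tetrahydrobiopterin synthesis, had 159, 140.2 and 99.6 against 922, 388 and 153, and Prdx1, a peroxidase gene, 146, 114 and 168 against 551, 224 and 178 counts. Fcgr3, Ly6c1, Angpt1, Cx3cr1, Il9 and Mif were the 6 lower genes, of which 4 were lower in 3 of 3 pairs (7.52% of all tested genes were) and 3 did not overlap (1.65%).

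Interleukins and related cytokines beyond the named ones went both ways. Of 11 tested, Il4 was higher (9.09%), and Il9 and Mif were lower, around a median of -0.17, and under TMM 0 were higher and 3 lower, Il9, Mif and Il15. Il4 had 338, 201 and 799 against 1142, 662 and 908 counts, overlapping through c-Kit KO replicate 3 (log2 fold change 1.02, SE 0.44, adjusted p = 0.312). Mif, the macrophage migration inhibitory factor gene, had 406, 721 and 417 counts in c-Kit KO and 319, 255 and 301 in Mettl3 KO cells, without overlap (log2 fold change -0.82, SE 0.30, adjusted p = 0.219), and was lower in the 3 unstimulated pairs too, with 375, 633 and 413 against 256, 326 and 366 counts. Il9 had 29.7, 39.3 and 431 against 19.8, 61.5 and 43.9 counts, where c-Kit KO replicate 3 stood far above the other 5 libraries (log2 fold change -2.01, SE 0.85, adjusted p = 0.292). Without that library the value was 0.26, and pair 2 ran the other way.

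Smaller lists gave 1 or 2 members each. Tnfsf10, encoding the TNF family ligand TRAIL, had 334, 347 and 292 against 711, 1369 and 358 counts, without overlap (log2 fold change 1.33, SE 0.48, adjusted p = 0.212), as 1 of 3 tested. Il1rap, the shared chain of the IL-1 and IL-33 receptors, was the one higher gene of 23 cytokine and growth factor receptors (4.35%), with 63.6, 98.9 and 60.8 against 239, 204 and 67.9 counts. Of 13 interferon-inducible genes, the ubiquitin-like Isg15 and the DNA exonuclease gene Trex1 passed (15.4%), with log2 fold changes of 1.82 and 0.91. Trex1 had 61.5, 63.6 and 57.9 against 117, 138 and 89.4 counts, without overlap. Ctsl, a lysosomal cysteine protease gene, was at background in c-Kit KO cells, with 8.48, 21.2 and 15.4 counts, and had 63.1, 54.1 and 29.8 in Mettl3 KO cells (log2 fold change 1.69, SE 0.38, adjusted p = 0.0544). In Mettl3 KO replicate 3 it was below that library's background too. Lamp3 and the sensor gene Tlr5 passed both thresholds but lay below background in all 6 libraries.

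The 5 lists without a gene past both thresholds were the colony-stimulating and gp130 cytokines, TNF family receptors, MHC genes, cell cycle genes and apoptosis genes, with 45 tested genes in all. By edgeR 0 of these had an unadjusted p under 0.05, DESeq2 called 2 and limma 1 at both thresholds, and with the replicate block 4 were higher past both, Csf1, Tnfrsf12a, Tnfrsf1b and Cdkn1a. With the block 94 of all 545 tested genes (17.2%) were higher, a larger share than these 4 of 45. Csf1, encoding the macrophage growth factor M-CSF, had 1166, 2522 and 1770.0 against 5511, 5569 and 2746 counts, without overlap, and did not pass (log2 fold change 1.34, SE 0.67, adjusted p = 0.393). Lif, in the same list, had a log2 fold change of -0.09, and the TNF receptor genes Tnfrsf9 and Tnfrsf12a had -0.34 and 1.00. The MHC class I genes H2-D1 and H2-K1 had log2 fold changes of 0.13 and 0.17 with standard errors of 0.27 and 0.22, neither past both thresholds. The 9 tested apoptosis and survival genes, led by the cell cycle inhibitor gene Cdkn1a at 0.57 and the autophagy receptor gene Sqstm1 at 0.56, had a median of 0.38 that was 0.20 under TMM.

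Cell cycle genes had a median of -0.22, with pair medians of -1.19, -0.07 and 0.37, so that the pairs disagreed in sign. Top2a, a topoisomerase made in dividing cells, had 271, 37.3 and 116 counts in c-Kit KO and 73.0, 39.4 and 127 in Mettl3 KO cells. The c-Kit KO libraries alone spanned the range of all 6. Mcm5, a DNA replication licensing gene, had 172, 89.8 and 167 against 105, 124 and 192 counts (log2 fold change -0.02).

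Mast cell identity was checked with 11 markers, all above background in both stimulated groups. Their summed normalized counts ran from 183823 to 305024 in c-Kit KO and from 165872 to 258160 in Mettl3 KO libraries, none passed both thresholds by edgeR (unadjusted p under 0.05 in 0, 1 called by DESeq2 and 0 by limma), and their median log2 fold change was -0.20. Cpa3 and Cma1, genes of mast cell proteases, had log2 fold changes of -0.65 and -0.26 (standard errors 0.34 and 0.33), and with the replicate block 1 marker passed both thresholds in each direction, Cpa3 lower and Il1rl1, the IL-33 receptor gene, higher (log2 fold changes -0.66 and 0.63). Of the markers of other cells, 0 of 14 for macrophages and 0 of 7 for dendritic cells were above background in at least 2 of 3 libraries of either group, and C1qa, Adgre1, H2-Ab1 and H2-Eb1 were among those tested that did not pass both thresholds. Fcnb of 10 neutrophil, Siglecf of 5 eosinophil, and Cd247 and Nkg7 of 7 lymphocyte markers were. Siglecf, a sialic acid-binding receptor gene, had 25.4, 41.4 and 76.9 against 47.7, 77.5 and 132 counts, and passed both thresholds with the replicate block but not without it (log2 fold change 0.85, against 0.83). The other 4 eosinophil markers, Ear6, Epx, Il5ra and Prg3, were below background in all 6 libraries. Mpo, the neutrophil myeloperoxidase gene, passed both thresholds (log2 fold change 0.89) and was below background in all 6 libraries. Summed levels of the macrophage markers were 183 to 232 in c-Kit KO and 219.8 to 248 in Mettl3 KO libraries, and of the neutrophil markers 114 to 194 and 156 to 193. Eosinophil marker sums were 73.1, 78.7 and 116 in c-Kit KO and 113, 127 and 178 in Mettl3 KO replicates 1, 2 and 3, larger in each pair. The dendritic cell sums ran from 82.1 to 125 and 99.3 to 117, and the lymphocyte sums from 120 to 179 and 115 to 231. The part of these markers in the results was not tested.

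Whether the genotypes differed more after stimulation than before was tested by the interaction of genotype and stimulation. By edgeR 0 genes had an adjusted p under 0.05 (23 had an unadjusted p under 0.05), against 2 by DESeq2 and 0 by limma. The smallest adjusted p by edgeR was 0.562. At both thresholds 23 genes (4.22%) had a larger difference, all in the direction of Mettl3 KO cells, and 21 of them were among the 71 higher genes. The stimulated difference is itself part of the interaction, so this direction and overlap are largely built in and give no separate support. They included Gem, Timp3, Ccr3, Hbegf, Atf3, Dusp2, Cebpb, Cxcl2, Ctsl and Vegfa, and of the NF-kB pathway Nfkb1, Nfkbie and Map3k14. Without the stimulated Mettl3 KO library of replicate 3 the interaction passed an adjusted p of 0.05 in 5 genes and both thresholds in 47. In unstimulated cells 4 genes were higher (0.734%) and 3 lower (0.550%) at both thresholds, and 0 of the 71 were among the 4.

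The 3′ UTRs of the higher genes were read for 2 sequence features, the AU-rich nonamer TTATTTATT, which contains the pentamer ATTTA and is known from unstable cytokine mRNAs, and GGACT, a common core of N6-methyladenosine sites. Sequences came from the GRCm39 genome with GENCODE M39 transcripts, on the transcript strand only, and 534 of the 545 tested genes had a 3′ UTR. The nonamer occurred in 12 of 70 higher genes (17.1%), in 43 of all 534 (8.05%) and in 0 of the 6 lower genes. Without the named cytokines it was 8 of 64 (12.5%) against 39 of 528 (7.39%). ATTTA occurred in 80% of higher genes against 69.5% of all, and GGACT in 68.6% against 63.3%, where the median 3′ UTR was 1258 bases long among higher genes and 1112 among all. Without the named cytokines these medians were 1512 and 1150 bases, and among the 6 lower genes the median was 444. These shares are descriptions, and longer 3′ UTRs hold any short word more often.

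The 8 higher genes outside the named cytokines that carry the nonamer span several of the groups above, and a window of 30 bases around its first occurrence is shown for each, with the nonamer in capitals, next to that of Il2. Areg lies at chr5:91296241-91296270 and Cxcl2 at chr5:91053175-91053204, both on the plus strand. Nfkbia lies at chr12:55536392-55536421 and Vegfa at chr17:46328091-46328120, both on the minus strand. Ptgs2 lies at chr1:149981541-149981570 and Rgs16 at chr1:153620915-153620944, on the plus strand. The elongation factor gene Ell2 lies at chr13:75918944-75918973 and Enc1 at chr13:97388189-97388218, on the plus strand, and Il2 at chr3:37175046-37175075 on the minus strand.
Areg: tatttaagtgTTATTTATTttatagctcat
Cxcl2: gagagttcacTTATTTATTtatctatgtat
Nfkbia: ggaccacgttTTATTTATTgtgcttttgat
Vegfa: ttgttatcatTTATTTATTggtgctactgt
Ptgs2: ctgaccatatTTATTTATTtatgtgaagaa
Rgs16: gctgctattgTTATTTATTgtggtttgttt
Ell2: aaactaaagcTTATTTATTtaaaattccag
Enc1: tgtccaaagcTTATTTATTtatctatttat
Il2: ttatctgaaaTTATTTATTatattgaattg

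Cxcl2 carried 4 copies of the nonamer, Rgs16 2 and the others 1 each. Gem, Timp3 and Ccr3, the genes outside the named cytokines with an adjusted p under 0.05, carried none. The log2 fold changes of the 8 carriers ran from 1.01 for Vegfa to 2.98 for Ptgs2, within the range of the 65 higher genes outside the named cytokines.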

How the data were processed

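Raw barcode counts per probe of the nCounter Myeloid Innate Immunity Panel were deposited by the authors for 12 libraries, with no normalization, and no column of the table was left without a sample (0 unmapped). The panel holds 734 endogenous, 20 housekeeping, 6 positive and 8 negative control probes. Groups and replicate numbers came from the sample labels. Columns of means, extremes and variation over all samples were not used.

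Counts were fitted with edgeR 4.0.16 (R 4.3.3) by its quasi-likelihood test in 1 model of the 4 groups, with library sizes set to the geometric mean of the housekeeping probes and p-values adjusted by Benjamini-Hochberg over the 545 probes with at least 20 counts in at least 3 libraries. The call rule of the study's methods (unadjusted p of at most 0.05 and fold of at least 1.5) was applied to the edgeR p-values beside an adjusted p under 0.05. Differences within a pair are of log2(normalized count + 1). The scripts were tested on simulated counts without a replicate effect or an outlying library, which checks the code and not the p-values of these libraries. P-values rest on the spread between these samples, estimated over the 4 groups together.

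Deviations from the group means of same-numbered stimulated libraries correlated at 0.42, 0.31 and 0.29, and of unstimulated ones at 0.28, 0.51 and 0.50, against -0.46 to 0.08 for different numbers. Deviations within a group of 3 cancel out, so the values for different numbers are partly fixed by those for the same number. The replicate number was taken to pair the samples in the differences within pairs and in the block. The main fit, with its standard errors and p-values, held no block. A table of the study numbers the stimulated Mettl3 KO library of replicate 3 differently, so the block was also fitted without it.

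Genes were named by rule: those with an adjusted p under 0.05, up to 2 genes per list with the smallest p past both thresholds and the same side in 3 of 3 pairs, every lower gene, up to 2 members with the highest mean count in lists without any, the named cytokines, and Kit. Other genes in the text were chosen after their values were seen. Groups of genes and all lists were chosen with earlier results of these data known. Results of some genes are not reported here.

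Gene positions, guide sites and 3′ UTRs came from GRCm39 with GENCODE release M39, with 1 canonical transcript per gene. Alternatives were TMM, DESeq2 1.42.0, limma 3.58.1 (pseudocount 1), other housekeeping, filter and background settings, only the stimulated libraries, the replicate block, the methods' t-test, and leaving out each replicate number or stimulated library.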

Additional observations from a re-analysis of the deposited data

Results flagged for a closer look

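Ccr3, Cdkn1a, Col4a2 and Gpr183 ran opposite ways in the 2 states: in every stimulated pair the Mettl3 KO library had the larger value, and in every unstimulated pair the smaller. For Ccr3, the eotaxin receptor gene, the log2 differences were 1.98, 3.23 and 1.33 in stimulated pairs 1, 2 and 3 and -0.38, -0.09 and -0.67 in unstimulated ones, so that the pair means differed by 2.56. Its unstimulated counts lay near background. Cdkn1a, the gene of the cell cycle inhibitor p21, had 0.61, 1.26 and 0.06 against -0.29, -0.02 and -0.07, a difference of 0.77 between the means. For Col4a2, a type IV collagen gene below background in 5 of the 6 stimulated libraries, the means differed by 1.10, and for Gpr183, below background in all 6, by 1.07. These differences between pair means were not themselves tested. The interaction of genotype and stimulation in the edgeR fit was 2.75 (standard error 0.68, adjusted p = 0.562) for Ccr3, 0.70 (standard error 0.38, adjusted p = 0.993) for Cdkn1a, 1.18 (standard error 0.50, adjusted p = 0.993) for Col4a2 and 1.14 (standard error 0.47, adjusted p = 0.993) for Gpr183, none past the adjusted threshold.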

How the results depend on the processing

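The count of 5 genes with an adjusted p under 0.05 was 23 by DESeq2, 12 with counts under 20 set to 20, 1 with background subtracted, 0 with only the stimulated libraries, 0 by the methods' t-test after Benjamini-Hochberg, and 45 with the replicate block without the stimulated Mettl3 KO library of replicate 3. The 71 higher genes at both thresholds were 29 by the methods' t-test, and the 6 lower genes 1 by that test, 16 under TMM, 22 by DESeq2, 16 with background subtracted, 2 with only the stimulated libraries, 12 with the replicate block and 17 with the block without that Mettl3 KO library. Leaving out a replicate number or a stimulated library gave 0 to 33 genes with an adjusted p under 0.05, 27 to 89 higher and 1 to 11 lower. The adjusted count was 0 without replicate 1, without replicate 2 and without either of the c-Kit KO libraries of these numbers, 1 without either of the Mettl3 KO libraries 1 and 2, 6 without c-Kit KO library 3, and 33 without replicate 3 or without its Mettl3 KO library alone. For the interaction the count of 0 at an adjusted p under 0.05 was 2 by DESeq2, 3 with the block without Mettl3 KO library 3, and 0 to 5 with a replicate or library left out, and the 23 at both thresholds were 35 with the block, 62 with the block without that library, and 6 to 47 with one left out. The fit of the stimulated libraries alone and the methods' t-test give no interaction. The cause of these changes was not tested.

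Of 45 named genes past both thresholds, 7 stayed past them in every alternative that tested them: Ccr3, Ctsl, Gem, Hbegf, Il2, Il3 and Timp3. Ctsl, near background, was tested in 20 of the 21 alternatives. The log2 fold change of Il9, at -2.01, was -3.33 with background subtracted. With a replicate or library left out it ran from -2.85 without replicate 2 to 0.26 without c-Kit KO library 3, and it reversed in the latter and without replicate 3, at 0.21. Of 1386 values of 67 named genes, 1099 kept direction and call, 213 lost a call, 28 gained one and 44 changed sign without a call. Medians of lists moved beyond the replicate spread in 112 of 729 values. Counts near the negative controls limit 138 of the 545 tested probes.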
